A study of Mus musculus with 2 samples.

Results

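DNase I footprints that lay outside every called peak of their own library were examined in mouse frontal cortex. DNase-seq maps open chromatin by cutting accessible DNA with the nuclease DNase I, a peak is a stretch with many cuts, and a footprint is a short protected stretch among cuts. Members were chosen by a rule on the deposited calls: autosomal footprints with no base in any peak of the longer of both deposited peak lists of the same library. The rule gave 41633 of 286368 autosomal footprints in replicate 1 (14.5%) and 22409 of 182949 in replicate 2 (12.2%), out of 293484 and 187137 footprints on all chromosomes. Single autosomes of replicate 1 had shares of 13.3% to 16.1%, and those of replicate 2 had 11.2% to 14.7%. The remaining 244735 and 160540 autosomal footprints had at least 1 base in a peak and are called inside here.

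The series holds 1 group of 2 libraries, labelled biological replicates 1 and 2, of frontal cortex tissue from female B6CASTF1/J mice aged 10 days. These mice are F1 offspring of a C57BL/6 and a CAST parent. Both labels point to the same donor record, and one mark in them, "3x", is not explained in the sources used here, so the spread between the libraries may be partly technical. Whole cortex mixes neurons, glia and vascular cells, and fewer cells of a type and less accessible chromatin per cell cannot be told apart. As a check of the tissue, all 10 cortex and forebrain marker genes had a peak within 1 kb of a start site in both libraries. Of 8 genes of other brain regions 4 had one in each library, of 8 genes of other organs 2 had one in replicate 1 and 0 in replicate 2, and of 1126 olfactory receptor genes 19 had one in each. The longer lists hold 104654 and 81654 peaks. Footprints covered 3.66 Mb and 2.37 Mb of the autosomes and peaks 21.2 Mb and 16.6 Mb. Read depth is unknown from these files, and replicate 1 had more peaks and more footprints throughout.

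A transcription factor bound to open DNA shields its site from DNase I, so the cuts fall beside the bound bases and leave a short gap. Promoters and enhancers are the main places where such gaps occur. CTCF, an insulator-binding factor, holds its site long enough to leave a clear gap, whereas factors that leave DNA quickly often leave little trace. DNase I also prefers some bases over others, so a gap can reflect sequence as well as a bound protein. A peak caller draws an edge on a gradual slope of cuts, and a footprint caller works from each base, so both kinds of call need not coincide.

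The sequences below show known motifs under shared members, that is, members of replicate 1 that overlap a member of replicate 2. For each motif the site shown was the one farthest from a peak, by the smaller of the distances in both libraries, among shared members whose replicate 1 footprint covered at least 0.5 of the match. All are from GRCm38, the build of the files' mm10 coordinates, which is the C57BL/6J sequence and not that of the CAST parent. Capitals mark the motif match.
CTCF site, chr12:100724748-100724777, plus strand: ctggcccggCCAGCAGAGGGCggggtcgct
NRF1 site, chr15:99393205-99393234, plus strand: aactaatgcCGCGCATGCGCAgcagcgccg
CRE site, chr7:126799562-126799591, plus strand: tagttgcagccTGACGTCActgctaagaac
RFX site, chr19:4096803-4096832, plus strand: tgagggaaccGTTGCCATGGgaacaaatac
EGR site, chr15:38301379-38301407, minus strand: gccgccttggGCGTGGGCGgtgagtgcga

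All of these sites lay within 1 kb of a start site. The CTCF site had footprints of 27 bp in replicate 1 and 10 bp in replicate 2, at 261 bp and 273 bp from the nearest peak, and the nearest protein-coding start was that of Rps6ka5, a kinase gene, at 261 bp. The NRF1 site had the widest footprints in both libraries, 33 bp and 30 bp, at 190 bp and 172 bp from a peak and 7 bp from a start site of Tmbim6. NRF1 activates genes of mitochondrial respiration. The site of the cyclic AMP response element (CRE) had footprints of 16 bp and 7 bp, 147 bp and 178 bp from a peak, and lay 321 bp from a start of the glycolytic gene Aldoa. The RFX site had footprints of 16 bp and 7 bp at 237 bp and 239 bp from a peak, near Cdk2ap2. The EGR site had 19 bp footprints in both libraries at 237 bp and 243 bp from a peak, near the transcription factor gene Klf10. Such sites were few, since a match lay under 16 shared members for CTCF, 21 for NRF1, 15 for CRE, 12 for RFX and 23 for EGR.

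A second set shows how several members can line a single peak. The flank with the most shared members free of annotated exons was chosen after the values were seen, and it held 6 shared members, 8 members of replicate 1 and 6 of replicate 2. It begins 20 bases inside the right edge of a peak, with its centre 822 bp from the nearest start site of Mex3b, a gene for an RNA-binding protein. Capitals mark the 6 replicate 1 footprints that overlapped a member of replicate 2.
Flank of a peak, chr7:82866361-82866660, plus strand: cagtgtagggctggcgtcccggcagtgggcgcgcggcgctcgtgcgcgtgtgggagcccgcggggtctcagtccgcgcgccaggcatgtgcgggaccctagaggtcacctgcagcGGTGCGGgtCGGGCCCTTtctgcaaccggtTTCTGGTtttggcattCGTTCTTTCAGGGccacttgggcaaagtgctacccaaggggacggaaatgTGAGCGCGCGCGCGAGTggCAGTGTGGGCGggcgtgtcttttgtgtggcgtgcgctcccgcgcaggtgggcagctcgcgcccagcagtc

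On that flank the sites lay 96 to 211 bp from the replicate 1 peak, and their partners 33 to 150 bp from the replicate 2 peak. Their widths were 7 to 17 bp in replicate 1 and 7 to 14 bp in replicate 2. The peak beside them had a deposited signal, the authors' value for a peak whose scaling is not stated, of 10.1 in replicate 1 and 9.55 in replicate 2. The neighbouring pair at bases 116 to 122 and 125 to 133 met 1 single footprint of 14 bp in replicate 2, so the libraries divided these bases differently.

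Footprints outside peaks of the longer list lay directly beside peaks, as a description of what the rule left. The median distance to the nearest peak, counting an adjoining footprint as 1 bp away, was 47.0 bp in replicate 1 and 42.0 bp in replicate 2. Within 10 bp of an edge lay 15.2% and 16.7%, within 50 bp 53.0% and 57.5%, and within 200 bp 93.2% and 95.9%. With the shorter list of each library in place of the longer one, the mean over the libraries of the median distance was 332 bp in place of 44.5 bp. Within 200 bp then lay 45.4% in place of 94.5%. With the longer list, 54 and 4 members lay beyond 500 bp, and the farthest were 761 bp and 633 bp away, so every member had a peak of its own library within 761 bp. The farthest of replicate 1, of 10 bp, was in an intron, 1408 bp from a start of Irs2, which encodes an adaptor of the insulin receptor. The farthest of replicate 2, of 7 bp, was 746 bp from a start of Fam160b1. A peak within 500 bp on both sides was found for 30.4% and 25.1% of members.

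**Figure D1:**
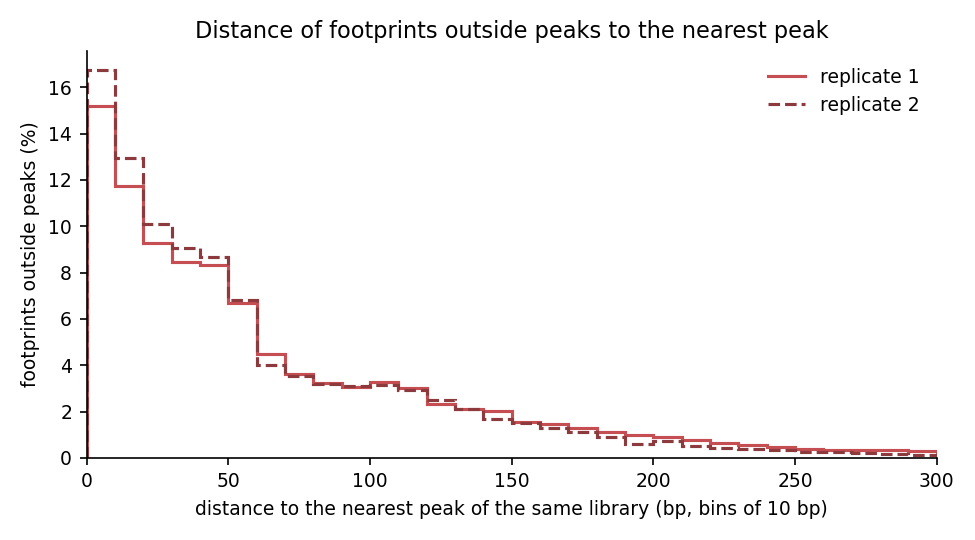
Share of footprints outside peaks (vertical axis, %) by distance to the nearest peak of the same library (horizontal axis, bp, in bins of 10 bp, shown up to 300 bp) for replicates 1 and 2. The first bin held 15.2% and 16.7% of members, and the medians were 47.0 and 42.0 bp.

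The members gathered around a minority of peaks. Their nearest peaks numbered 19964 of 98580 in replicate 1 (20.3%) and 12685 of 77421 in replicate 2 (16.4%), after overlapping peaks of a list were joined. Of these peaks 51.1% and 60.2% had 1 member, the mean was 2.09 and 1.77, and the most at 1 peak was 16 and 13. Strong peaks had them more often. Peaks were ranked by signal and cut into 5 classes of equal size, and each member within 500 bp was counted for its nearest peak only. By this count 55.4% of the highest class in replicate 1 and 44.5% in replicate 2 had a member, against 8.15% and 4.65% of the lowest class. Within the highest class, peaks centred within 1 kb of a start site had one in 69.8% and 53.4%, and peaks farther away in 28.5% and 24.5%.

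The values on either side of the edge that defines the members were as follows. Footprints 1 to 10 bp outside the edge numbered 6329 and 3752, with mean widths of 10.9 and 10.5 bp. Footprints wholly inside a peak and at most 10 bp from its edge numbered 16690 and 8996, with mean widths of 11 and 10.9 bp. Of those just outside, 31.4% and 56.0% overlapped a footprint of the other library, and of those just inside, 26.3% and 47.2%. Footprints that straddled an edge, counted as inside, numbered 7736 and 4440 and were wider, at 14.6 and 14.1 bp on average.

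Members were narrow. Their median width was 9 bp in replicate 1 and 8 bp in replicate 2, and inside footprints had 10 bp in both. The mean width was 10.4 ± 0.0919 bp outside and 13.2 ± 0.0785 bp inside (SD, n = 2 libraries). The narrowest width in the files, 7 bp, was that of 35.6% and 36.4% of members, against 25.7% and 25.7% of inside footprints. Widths over 20 bp were found in 5.55% and 5.49% of members, against 16.2% and 16.4% inside. An exact permutation test that swaps the outside and inside labels within each library can reach no p below 0.5 with 2 libraries, so here and in the other comparisons of outside with inside the values are given as a description. The width difference had the same sign in both.

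The widest members are shown because a wide gap can hold more than 1 site. Of the 5 widest shared members, 1 lay in an annotated exon and is not printed. Capitals mark the bases that both libraries covered.
Intergenic, 6177 bp from a start of Olfr750, chr14:51065237-51065292, plus strand: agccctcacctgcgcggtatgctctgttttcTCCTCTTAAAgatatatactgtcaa
Intergenic, nearest coding start Tarbp1, chr8:126497640-126497692, plus strand: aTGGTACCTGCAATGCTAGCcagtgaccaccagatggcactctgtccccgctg
At 663 bp from a start of Hacd1, chr2:14055333-14055380, plus strand: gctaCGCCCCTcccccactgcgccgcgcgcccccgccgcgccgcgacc
At 320 bp from a start of Lsm14b, chr2:180024643-180024690, plus strand: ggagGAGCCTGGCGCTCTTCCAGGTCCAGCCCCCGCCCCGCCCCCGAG

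These 4 footprints were 56, 53, 48 and 48 bp wide in replicate 1. Their partners in replicate 2 covered 10, 19, 7 and 44 of those bases, so of these 4 the Lsm14b site alone was nearly the same in both. A CTCF match lay in the second, in the part that replicate 1 alone covered. An SP/KLF match lay in the Lsm14b site. These factors bind GC-rich promoter boxes, and GC made up 79.2% of that site.

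Calls of the other library did not enter the choice of the members. In replicate 1, 25.3% of members overlapped a footprint of replicate 2 by at least 1 bp, against 39.4% of inside footprints and 37.4% of all autosomal footprints. In replicate 2, 51.7% overlapped a footprint of replicate 1, against 61.5% of inside footprints and 60.3% of all. The mean was 38.5 ± 18.7% outside and 50.5 ± 15.6% inside (SD, n = 2), and the exact permutation p was 0.5, the smallest possible. Under a 50% reciprocal overlap the means were 24.9% outside and 35.2% inside, with a footprint within 20 bp counted 53.0% and 65.6%, and with the shorter peak list 28.4% and 59.4%. By the 1 bp rule the share was lower outside than inside in both libraries, by 14.1 and 9.73 percentage points, while the libraries differed more from each other than outside from inside, and replicate 1 has the longer footprint list. The order held among footprints within 1 kb of a start site (27.7% and 56.7% outside, 48.3% and 66.8% inside) and among those farther away (18.9% and 39.7% outside, 32.2% and 56.1% inside).

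Most overlapped partners were themselves outside peaks. Of the 10551 and 11596 members that met a footprint of the other library, 60.3% and 56.1% met one that was also outside, against 5.06% and 4.24% of the inside footprints that met one. This gave 6366 shared members seen from replicate 1, and 6502 members of replicate 2 that overlapped a member of replicate 1, or 15.3% and 29.0% of members. The nearest peak itself was mostly present in both libraries: it overlapped a peak of the other library for 88.6% and 95.6% of members, against 82.4% and 95.8% for inside footprints.

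A peak of the other library covered at least 1 base of 26.2% of members of replicate 1 and 39.0% of replicate 2, against 73.5% and 89.1% of inside footprints and 66.6% and 82.9% of all autosomal footprints. The mean was 32.6 ± 9.04% outside and 81.3 ± 11% inside (SD, n = 2, exact permutation p = 0.5). Neither a peak nor a footprint of the other library met 58.2% and 30.4% of members, against 24.7% and 8.33% of inside footprints.

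Overlap with the other library varied with distance. In replicate 1 the share meeting a footprint was 31.4% at 1 to 10 bp from the peak, 26.6% at 21 to 50 bp, 21.7% at 51 to 100 bp, 23.5% at 101 to 200 bp and 13.6% at 201 to 500 bp. In replicate 2 the same distances gave 56.0%, 53.4%, 45%, 50.3% and 50.2%. The share at 51 to 100 bp was thus below that at 101 to 200 bp in both libraries. The share in a peak of the other library was 34.2% at 1 to 10 bp and 14.5% at 201 to 500 bp in replicate 1, and 40.9% and 28.2% in replicate 2. Members farther out also lay more often near a start site, in 62.5% at 1 to 10 bp and 91.2% at 201 to 500 bp in replicate 1, and in 61.4% and 89.2% in replicate 2.

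**Figure D2:**
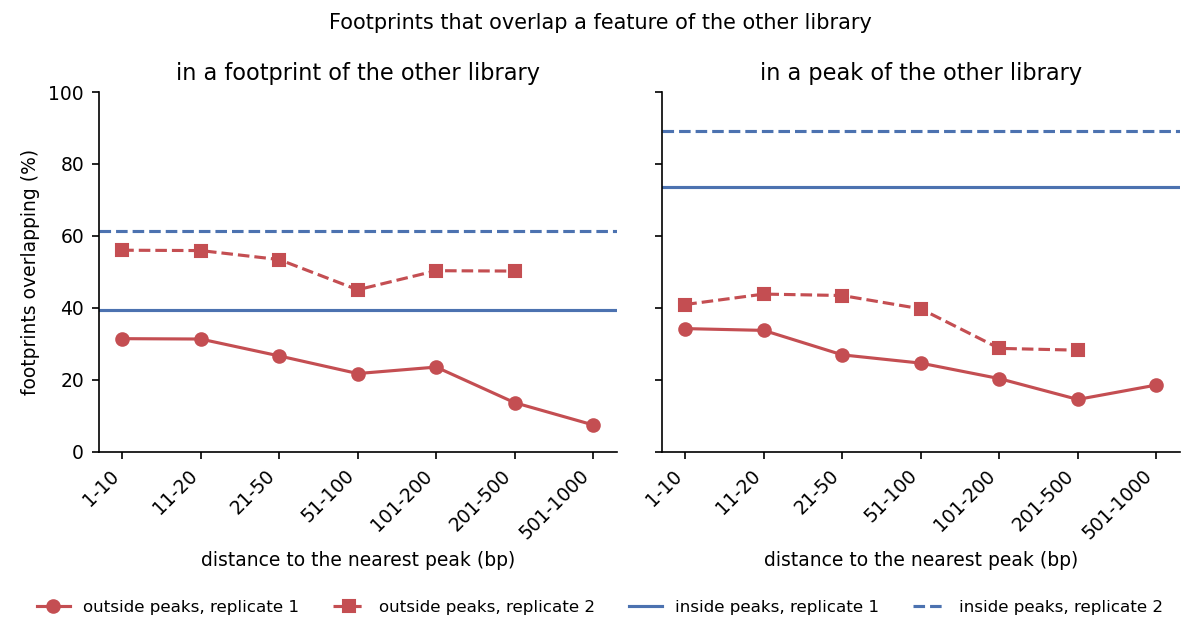
Share of footprints (vertical axes, %) that overlap a footprint (left) or a peak (right) of the other library, for footprints outside peaks by distance to the nearest peak of their own library (points, bins of at least 20 members) and for footprints inside peaks (horizontal lines). At each distance shown the points lie below the line of the same library.

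Some members lay in strong peaks of the other library. For replicate 1 the 2 members in the strongest such peak, of signal 29.4 in replicate 2, were in exonic sequence on chromosome 15 (99735976 to 99735984 and 99736024 to 99736042), 56 bp and 104 bp from a replicate 1 peak of signal 30.4. The next pair lay in an exon near Lars2, the gene of the mitochondrial leucyl-tRNA synthetase, 1 bp and 8 bp outside a replicate 1 peak of signal 27.6, and a replicate 2 peak of signal 26.3 covered them. The last of the 5 was a 29 bp footprint 40 bp from the start of Zfp143, a promoter-binding zinc finger gene, in a replicate 2 peak of 16.1. For replicate 2, 4 of the 5 lay within 232 bp of starts of Nup107, which encodes a nuclear pore subunit, in a replicate 1 peak of signal 14.1, and 12 to 78 bp outside a replicate 2 peak of 17.3. The fifth lay near Mxd1, 43 bp outside a peak of 14.8. In 9 of these 10 cases the nearest peak of the member's own library had a signal of at least 14.8, and near Zfp143 the nearest replicate 1 peak had a signal of 2.59.

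Start sites held most members. The midpoint lay within 1 kb of an annotated GENCODE M21 start site in 73.0% of members of replicate 1 and 70.7% of replicate 2, against 45% and 50.7% of inside footprints and 6.11% of autosomal bases. Introns held 11.5% and 12.7% of members, against 25.6% and 23.0% inside and 39.3% of bases. Intergenic sequence held 12.7% and 14.3%, against 24.9% and 22.6% inside and 51.3% of bases. Exons farther from starts held 2.77% and 2.30%, against 4.52% and 3.74% inside and 3.28% of bases. The mean share near start sites was 71.8 ± 1.58% outside and 47.8 ± 3.97% inside (SD, n = 2, exact permutation p = 0.5).

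This order depended on the peak list. With the shorter list of each library defining outside, 43.0% of the footprints outside lay near a start site, against 55.2% of those inside. Of the start-site members, 95.2% and 95% were near the start of a protein-coding gene.

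**Figure D3:**
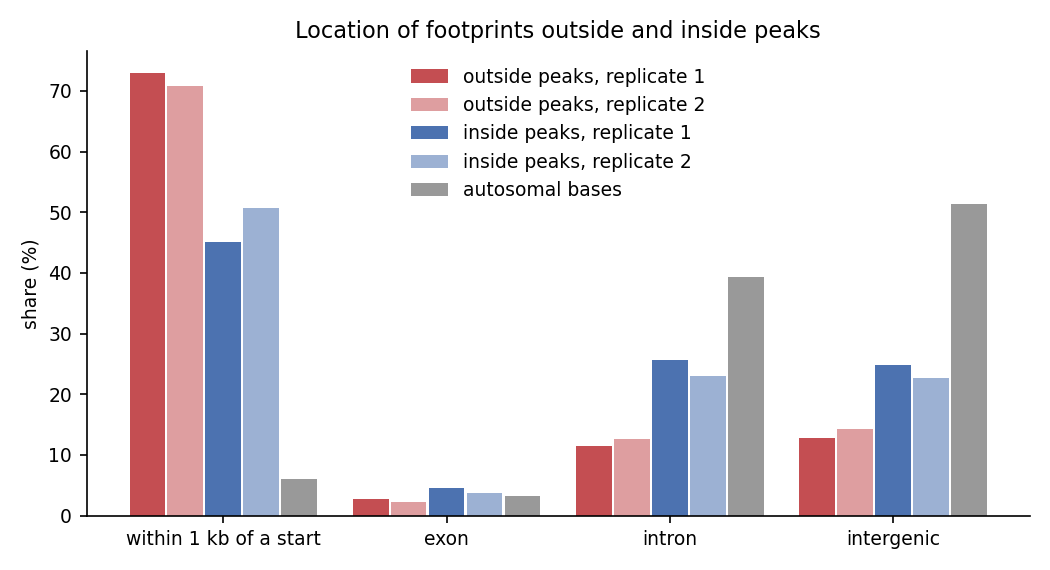
Share (vertical axis, %) of footprints outside peaks, footprints inside peaks and autosomal bases within 1 kb of a start site, in exons, in introns and in intergenic sequence, with each replicate as a bar. Near start sites the bars stand at 73.0% and 70.7% outside, 45% and 50.7% inside and 6.11% of bases.

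Around the start site the members were relatively sparser just upstream, and denser from 50 to 299 bp downstream, than inside footprints. At 0 to 49 bp downstream lay 12.9% and 13.9% of the start-site members, against 14.5% and 15.9% inside. In the 100 bp upstream of the start lay 14.6% and 18.9% of the start-site members, against 29.3% and 33.3% of the inside footprints near starts. From 100 to 299 bp downstream lay 21.3% and 17.1% of members, against 9.63% and 8.15% inside. From 300 to 1000 bp downstream the order turned, with 9.50% and 8.26% of members and 13.9% and 10.7% inside. In the zone from 100 to 299 bp 37.9% and 29.0% of all footprints were outside peaks, and in the 100 bp upstream 12.1% and 9.94%. A second zone, 101 to 300 bp upstream, held 19.5% and 21.3% of members, against 16.4% and 17.2% inside. Downstream of the start lay 54.7% and 48.8% of start-site members, against 43.5% and 39.8% inside.

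**Figure D4:**
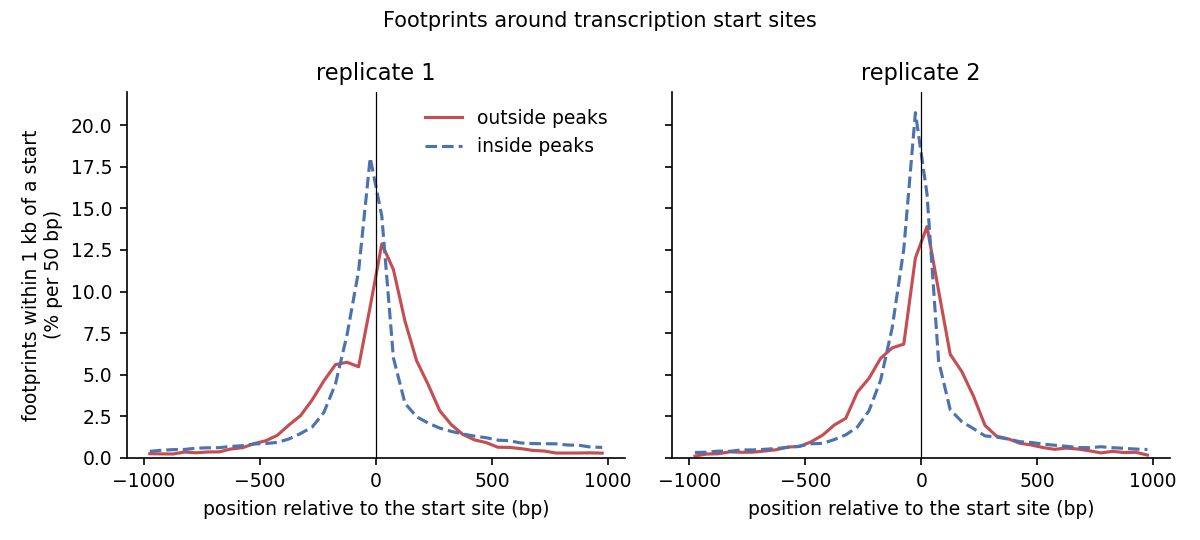
Share of the footprints within 1 kb of a start site (vertical axes, % per 50 bp) by position relative to the nearest start (horizontal axes, bp, positive downstream) for footprints outside peaks (solid) and inside peaks (dashed) in each replicate. The inside curve is highest at 1 to 50 bp upstream, with 18% and 20.8%, and the outside curve at 0 to 49 bp downstream, with 12.9% and 13.9%.

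The sequence around members was rich in GC. GC made up 61.3% and 60.5% of the 150 bp around members, against 57.9% and 58.7% around inside footprints and 41.9% of the autosomes. Within the footprint it was 68.4% and 66.7%, against 63.8% and 64.2% inside. The median number of CpG dinucleotides in 150 bp was 9 in both libraries, against 5 and 6 inside. Among start-site footprints the surrounding GC was 64.5% and 64.2% outside and 64.1% and 64.4% inside. Away from starts it was 52.7% and 51.7% outside and 52.9% and 52.8% inside, so within each location class the GC contents lay within 1.08 percentage points of each other.

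The deposited cut rate table, which lists bases by the false discovery rate of their local cut rate up to about 0.05, covered nearly all members. At least 1 base was listed in 99.3% and 99.3% of members, against 99.5% and 99.7% of inside footprints. The median of the lowest log10 false discovery rate under a member was -11.2 and -11, against -6.36 and -7.83 inside. The table came from the same library as the peaks, so these values describe the members and support nothing. Within location classes the order was not the same: near starts the medians were -15.0 and -15.6 outside and -14.2 and -16.3 inside, and farther away -3.64 and -3.78 outside and -4.08 and -4.70 inside. The continuous listed stretch that held a member also held a peak in 95.7% and 96.2% of cases, and these stretches were long, with a median of 1017 and 930.0 bp against 413 and 490.0 bp for inside footprints. The nearest peak of members had a median signal of 2.94 and 3.52, against 1.05 and 1.80 for the peaks around inside footprints. Near starts these medians were 4.13 and 4.95 outside and 2.03 and 3.24 inside, and farther away 0.729 and 1.12 outside and 0.724 and 1.17 inside.

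Matches to 13 motifs were sought on both strands in each footprint with 10 bp on each side. CTCF stood lowest relative to inside footprints. A CTCF match lay in 71 members of replicate 1 (0.171%) and 63 of replicate 2 (0.281%), against 2.12% and 2.62% of inside footprints. Over all 30 bp windows of the autosomes it lay in 0.00964%. Over flanking windows, within 500 bp of a peak and free of footprints, it lay in 0.00726%, so members had 23.5 and 38.7 times that share. The sets differ, since flanking windows lie outside the peaks of both libraries and members can lie in a peak of the other. Members outside the peaks of both libraries had a CTCF match in 0.104% and 0.161%. The mean was 0.226 ± 0.0778% outside and 2.37 ± 0.354% inside (SD, n = 2, exact permutation p = 0.5). The order held near starts (0.125% and 0.145% outside, 0.587% and 0.696% inside) and farther away (0.293% and 0.610% outside, 3.37% and 4.60% inside). Of the members with a CTCF match, 74.6% and 95.2% overlapped a footprint of the other library, against 25.3% and 51.7% of all members.

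Several other motifs were also rarer outside than inside. NRF1 matches lay in 0.118% and 0.219% of members, against 0.225% and 0.326% inside. CRE, searched as TGACGTCA and bound by CREB and related factors, lay in 0.130% and 0.196%, against 0.342% and 0.419%. The ETS box CCGGAAGT lay in 0.211% and 0.330%, against 0.344% and 0.480%. RFX, searched as GTTNC with CATGG right behind it, lay in 0.161% and 0.250%, against 0.431% and 0.376%. RFX factors act in genes of cilia and of antigen presentation. These motifs were nevertheless 4.66 to 49 times as frequent in members as in flanking windows, with the same difference between the sets as for CTCF. Near starts the ratios of outside to inside shares were 0.333 and 0.446 for NRF1, 0.246 and 0.386 for CRE, 0.393 and 0.469 for ETS and 0.459 and 0.638 for RFX. Away from starts few members carried NRF1, CRE or ETS (3 to 12), and NRF1 and ETS there had ratios above 1 in replicate 2.

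Pooled over locations, SP/KLF and EGR were more frequent outside. SP/KLF, searched as GGGGCGGGG, was the most frequent motif and lay in 2.41% and 2.56% of members, against 2.06% and 2.40% inside. Within classes this order turned near starts, with 3.01% and 3.30% outside and 3.91% and 4.24% inside, and held farther away, with 0.808% and 0.762% outside and 0.537% and 0.506% inside. EGR, searched as GCGTGGGCG and bound by activity-regulated zinc finger factors, lay in 0.202% and 0.223% of members, against 0.149% and 0.176% inside. Near starts its shares were 0.244% and 0.259% outside and 0.230% and 0.256% inside. Matches to EGR and SP/KLF can share bases. YY1, searched as AAGATGGCG, lay in 0.221% and 0.254% of members, against 0.199% and 0.254% inside. Within classes YY1 was rarer outside, with 0.293% and 0.347% outside and 0.318% and 0.374% inside near starts, and with 3 and 2 members (0.0267% and 0.0305%, against 0.102% and 0.130% inside) farther away. Nuclear factor I (NFI), a pair of TTGGC and GCCAA with a gap of 5 bases, lay in 12 and 4 members (0.0288% and 0.0178%), against 0.0405% and 0.0230% inside.

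Of the remaining motifs, pooled over locations, AP-1, the homeobox core and MEF2 were rarer in members than in flanking windows, and the E-box was more frequent. AP-1 (TGANTCA) lay in 0.367% and 0.393% of members, against 0.700% and 0.610% inside and 0.722% of flanking windows. The order against flanking windows turned away from starts, with AP-1 in 0.782% and 0.823% of members there and in 0.214% and 0.215% near starts. The homeobox core TAATTA lay in 0.209% and 0.219% of members, against 0.242% and 0.206% inside and 0.771% of flanking windows. Away from starts it was more frequent outside than inside, with 0.506% and 0.503% against 0.361% and 0.329%. Near starts its shares were 0.0988% and 0.101% outside and 0.0962% and 0.0861% inside. MEF2 lay in 0.147% and 0.170% of members, against 0.171% and 0.161% inside and 0.391% of flanking windows. Away from starts MEF2 was also more frequent outside, with 0.364% and 0.366% against 0.239% and 0.237% inside. Near starts its shares were 0.0658% and 0.0883% outside and 0.0889% and 0.0873% inside. The E-box CAGCTG, a site of neuronal basic helix-loop-helix factors, lay in 1.86% and 1.99% of members, against 3.04% and 2.72% inside and 1.31% of flanking windows. The GC content of the members, given above, moves with these shares, and its part in them was not tested. The footprint windows were at least 27 bp long and longer inside than outside, against a fixed 30 bp for the comparison windows.

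**Figure D5:**
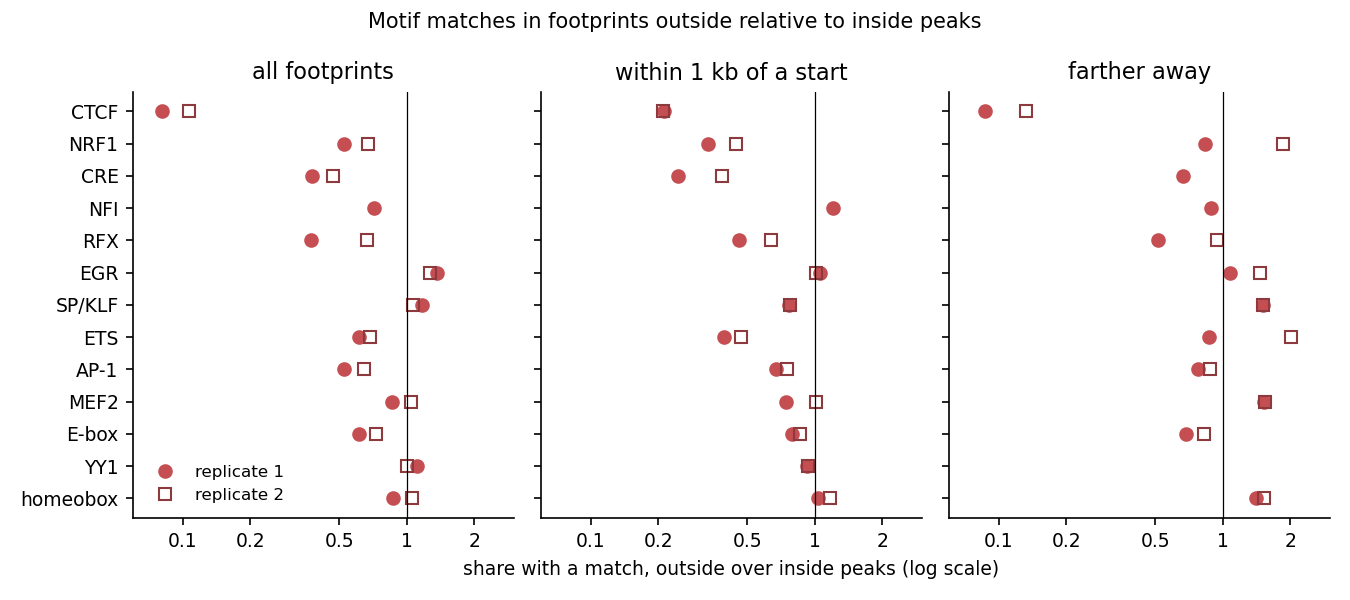
Ratio of the share of footprints with a motif match outside peaks to the share inside peaks (horizontal axes, log scale) for 13 motifs, for all footprints, those within 1 kb of a start site and those farther away, with filled circles for replicate 1 and open squares for replicate 2, and with ratios from fewer than 5 members left out. CTCF stands farthest to the left, at 0.0806 and 0.107 over all footprints, and SP/KLF lies left of 1 near starts and right of it farther away.

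Genes were then compared by the members around them. Of 20753 autosomal protein-coding genes, 10888 (52.5%) had a member in the gene body or 20 kb around it in both libraries, and 6331 (30.5%) had one within 1 kb of a start site in both. Of the 13573 genes with a peak at a start in both libraries, 46.6% had a member at a start in both. A member at a start with no peak there was found for 5 genes in replicate 1 and 2 in replicate 2, and for 0 in both. Of 6388 genes with no peak at a start in either library, 0 had a shared member there. This search for unmarked promoters could hardly name a gene. Within 200 bp of a peak lay 93.2% and 95.9% of members, so a member within 1 kb of a start mostly had a peak there too.

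Genes induced by neuronal activity had members at most of their starts. Of 12 such genes, all with a peak at a start in both libraries, 9 (75%) had a member there in both, beside 46.6% over all genes with such a peak. Egr1, an immediate early transcription factor, had 11 and 5 members at its starts, and 2 were shared. Homer1, a scaffold of the postsynapse, had 8 and 3, and 3 were shared. Npas4, a transcription factor of inhibitory synapse formation, had 6 and 1. Arc, which regulates AMPA receptor uptake, had 6 and 2. Fos, a subunit of AP-1, had 4 and 4, and its relatives Fosb and Junb 6 and 2 and 7 and 4. Of the 9 genes, Arc, Egr2, Fos and Junb had 0 shared members at their starts, so their members in both libraries were at different bases. Egr3 had 0 at its starts, and Bdnf and Nr4a3 had 7 and 4 in replicate 1 and 0 in replicate 2. The list's median density was 16.3 and 4.78 members per 100 kb of gene region, beside 2.58 and 1.12 over all genes, and these genes are short.

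All 8 autosomal housekeeping genes had a peak and members at their starts in both libraries, beside 46.6% over all genes with such a peak. Actb, which encodes cytoskeletal actin, had 17 and 4, of which 4 were shared, and Ppia, which encodes cyclophilin A, 7 and 3. The list's median density was 14.2 and 6.85 per 100 kb, beside 2.58 and 1.12 over all genes, and these genes are short. Within it, B2m had the fewest members in the gene region, 3 and 2.

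Markers of cortical cell types were compared in the same way, among genes with a peak at a start in both libraries. Of the excitatory neuron genes 2 of 11 had a member there in both, and of the inhibitory neuron and astrocyte genes 2 of 9 each. Of the oligodendrocyte lineage 0 of 6 had one, of microglia 1 of 3, and of endothelial and mural cells 1 of 4. Each share was below the 46.6% over all genes with such a peak, but lists of 3 and 4 such genes say little. Cux2, a transcription factor of upper cortical layers, had the most of the excitatory list, 13 and 9 in its region, and Tbr1, of deep layers, had 0. Among inhibitory markers Slc32a1, the vesicular GABA transporter gene, had 6 and 7 and Vip 0. Dlx1 and Dlx2, whose gene regions overlap, had 12 each in replicate 1 and 0 in replicate 2. Among astrocyte markers Glul, the glutamine synthetase gene, had 7 and 2, all at its starts, and Aqp4 had 0. Mbp, a myelin protein gene, led the oligodendrocyte list with 9 and 6, and Olig2 had 0. Cx3cr1, the fractalkine receptor gene of microglia, is annotated from 119901616 to 120069879 on chromosome 9. It had 15 and 5 in its region, of which 2 and 1 lay at its starts, and Trem2 had 0. Vtn led the endothelial and mural list with 8 and 4, none at its starts, and Tek had 0.

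Of the 10 long neuronal genes, all with a peak at a start in both libraries, 3 had a member at a start in both, beside 46.6% over all genes with such a peak. Grm7, a glutamate receptor gene, had 13 and 8 in its region, of which 9 and 7 lay at its starts. Lrp1b had 4 and 0. The median density, 0.480 and 0.151 per 100 kb, was below that of all genes, and these genes are long. None of the 10 genes of other organs had a peak at a start in both libraries, and none had a member there in both. Ins2, annotated from 142678656 to 142743381 on chromosome 7, had the most in its region, 3 and 2, and none at its starts.

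Genes with the most shared members in their bodies included several whose annotated span is long or overlaps neighbours. Gm20388, annotated on chromosome 8 from 119910841 to 124345722, held 28, and 0 lay at its starts. How these divide among other genes within that span was not examined. Fgfr2, a growth factor receptor gene annotated from 130162451 to 133123350 on chromosome 7, held 12, and 0 lay at its starts. Nsun2, an RNA methyltransferase gene, held 13, and 11 lay within 1 kb of its starts. H2-DMa, of antigen presentation, held 11, and Brd2, a bromodomain gene that overlaps it, 7 in its body and 9 at its starts. Por, which encodes the electron donor of cytochromes P450, held 9 in its body and 9 at its starts. Kat6b, a histone acetyltransferase gene, Ywhaz, a 14-3-3 protein gene, and Zdhhc14, a palmitoyltransferase gene, held 7 each, and 7, 7 and 3 lay at their starts. The gene 1110032A03Rik held 6.

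The 50 kb windows with the most shared members all held protein-coding starts. The first, on chromosome 17 from 34100001 to 34150000, held 11 shared members, 29 members of replicate 1 and 28 of replicate 2, with starts of Brd2, H2-DMa and H2-DMb2. The second, on chromosome 10 from 80100001 to 80150000, held 9, with 27 and 18 members and starts of Atp5d, Cbarp, Midn, Sbno2 and Stk11. The third, on chromosome 5, held 9 at Por. The fourth, on chromosome 1, held 8 with starts of Apobec4, Arpc5 and Rgl1, and the last, on chromosome 11, held 8 with starts of Mycbpap and Rsad1.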

How the data were processed

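Per the labels, DNase-seq libraries of frontal cortex from 2 replicates were processed by the submitters on mm10. Per the text files deposited with them, peaks were called from alignments of each library, and footprints from filtered alignments and the same library's cut rate table. Callers, versions and thresholds: not given in the sources used here, and read depth is unknown. The deposited peak signal is the authors' value and was used only to rank and describe peaks within a library. The deposited cut rate table gives the authors' false discovery rate per base (treated as a p-value), and its log10 was read from the text because some values are too small for double precision. The score deposited with each footprint was 0.01 in every row and was not used. The deposited files hold no other unit that was used.

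Coordinates were set against GENCODE M21 and GRCm38.p6, the same build as mm10. Intervals were compared with numpy 2.4.6 and pandas 2.3.3 in Python 3.11.15, and figures drawn with matplotlib 3.10.9. A footprint was outside if no base lay in a peak of the longer list, counted as overlapping the other library from 1 bp on, called a shared member if the footprint it overlapped was itself outside peaks of the other library, and placed at a start site if its midpoint was at most 1 kb from one, and failing that in exonic, intronic or intergenic sequence. A gene's region was its body with 20 kb on each side. Motifs were exact consensus matches, compared with non-overlapping 30 bp windows over the autosomes and over windows outside both libraries' peaks, within 500 bp of one and free of footprints. Interval and motif code was tested on simulated data, with 0 differences from a direct search over 800 intervals and 13 motifs.

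With 1 group and 2 libraries, the test was an exact two-sided permutation of outside and inside within each library. Genes and sites were named by rule: most shared members in the gene body, shared members at a start without a peak, the most and fewest members of each gene list, the farthest site per motif, the widest shared members, members in the strongest peaks of the other library, and the 50 kb windows with the most. Members, lists and rules were chosen with earlier results of these data known. List genes that are not autosomal were left out, and a few named items are not reported here. Alternatives covered the peak list, peak edges, overlap rules, windows, motif stretch, the X chromosome and each replicate.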

Additional observations from a re-analysis of the deposited data

Results flagged for a closer look

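The rule for members covers autosomes, and footprints outside peaks were also present on the sex chromosomes, which entered no comparison above. On chromosome X, 872 of 7042 footprints in replicate 1 (12.4%) and 456 of 4123 in replicate 2 (11.1%) were outside, with median distances to a peak of 39.5 and 44.5 bp, and 22.6% and 46.9% overlapped a footprint of the other library. On chromosome Y, 6 of 74 in replicate 1 and 7 of 65 in replicate 2 were outside, in libraries labelled female. The peak lists also held 37 and 25 peaks on that chromosome. No control samples were analysed, so these are values above 0 and nothing more.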

How the results depend on the processing

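Of 63 values recomputed with both libraries, 37 stayed within the spread of the libraries (SD, n = 2). These include 9 values from merging adjoining footprints, which were the main values again. For overlap with a footprint of the other library the SD was 18.7 percentage points, so means from 24.9% to 53.0% counted as within it. Values are means of the libraries, and the cause of each shift was not tested beyond what a setting does by construction. With the shorter peak list, 33.8% of footprints were outside, 45.4% of them within 200 bp of a peak at a median of 332 bp, 46.1% in a peak of the other library, 98.6% with a listed base and 0.966% with a CTCF match, and the order at start sites turned, with 43.0% outside and 55.2% inside. Requiring no peak in either library left 9.10% outside, with 76.4% near starts, 99.2% listed and 0.133% with CTCF. Their median distance was 39.5 bp, measured to the nearest peak of either library and not of the same library alone. None can then lie in a peak of the other library, so that value was not run. Peaks widened by 100 bp left 3.22% outside, 77.4% of them within 200 bp of the original edge at a median of 147 bp, with 84.7% near starts, and the listed share turned, with 99.6% outside and 99.5% inside. Within 100 bp and 500 bp of a peak lay 76.1% and 99.9%. Start windows of 100 bp and 500 bp gave 29.4% and 66.0%, and protein-coding starts 68.3%. With 50 bp on each side, 100% were listed. The footprint alone gave 0.137% for CTCF, and the classes chosen after seeing the data 0.135% near starts and 0.451% farther away. No footprints of a library adjoined, so merging changed nothing. Leaving out either replicate leaves the other's value, given in the report. The comparison of outside with inside is paired within each library already. With 2 libraries and unknown depth, small differences in share cannot be told from differences in calling.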

Other observations

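A minority of members sat apart from any peak in the cut rate table as well. The listed stretch around them held no peak for 1486 members of replicate 1 and 688 of replicate 2. Of these 3.10% and 12.1% overlapped a footprint of the other library, 17.3% and 42.7% lay in a peak of the other library, and 31.2% and 31.4% were within 1 kb of a start site. Their median lowest log10 false discovery rate was -1.45 and -1.46, and the nearest peak had a median signal of 0.417 and 0.643. A further 303 and 154 members had no listed base, and 3.30% and 11.7% of those overlapped a footprint of the other library.

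Members whose nearest peak had no counterpart in the other library met its footprints less often. They numbered 4730 in replicate 1 and 980 in replicate 2, and 2.47% and 7.76% overlapped a footprint of the other library, against 0.526% and 2.13% of inside footprints of such peaks. Where the nearest peak was present in both libraries, 28.3% and 53.8% of members overlapped one, against 47.7% and 64.1% of inside footprints. Repeat-masked sequence made up at least 50% of 9.85% and 9.90% of members, against 8.43% and 7.77% of inside footprints, and of 33.5% of the bases of the autosomes.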
